A study of Mus musculus with 8 samples.

Results

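Fibroblasts of the developing back dermis were compared between embryonic day 13 (E13) and embryonic day 15 (E15) in 4 control libraries of a mouse single-cell RNA-seq series. Cells were chosen by detected genes. A barcode was kept if it had at least 1000 genes and at most 10% of its unique molecular identifiers (UMIs, one per captured transcript) in mitochondrial genes. It also had to show at least 1 UMI of 3 or more of the 7 genes Pdgfra, Prrx1, Twist1, Twist2, Lum, Dcn and Mfap4, fewer than 3 of the epithelial genes Epcam, Cdh1, Cldn6, Cldn7, Esrp1, Grhl2 and Rab25, and no UMI of Cdh5, Ptprc, Sox10, Myog or Rgs5, which mark endothelium, leukocytes, neural crest derivatives, muscle and pericytes. The rule selected 2143 cells of the 3377 that passed the quality filter in these libraries. The whole series holds 8339 barcodes, of which 7486 passed that filter.

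The study dissociated dissected back skin with collagenase and trypsin and made 10x Genomics 3′ libraries. The control libraries are 1 WT and 1 HET library at each age. HET is the ΔNp63 -GFP KI-Het genotype, with a green fluorescent protein knock-in at 1 copy of ΔNp63, the main epidermal isoform of the transcription factor p63. A further 4 libraries carry the knock-in on both copies (ΔNp63 -GFP KI-KO, 2 at each age). They are used below only where the same age comparison is set beside the control one. The labels give no strain, do not say whether embryos were pooled, and do not state that the libraries came from separate litters, so the tests measure the spread between these libraries.

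Dermal fibroblasts of the trunk descend from the dermomyotome and lateral mesoderm and express Twist and Prrx transcription factors. In this period they pass from a proliferating loose mesenchyme to a matrix-producing tissue, separate into an upper papillary and a lower reticular and fascial layer, and gather under hair placodes as dermal condensates. Wnt, Hedgehog, FGF and BMP signals pass between epidermis and dermis while this happens, and the retreat of fetal regulators such as Hmga2 has been tied in many tissues to let-7 microRNAs.

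Gated cells numbered 541 in E13 WT, 691 in E13 HET, 353 in E15 WT and 558 in E15 HET. These were 59.8%, 57.9%, 69.9% and 72.1% of the cells that passed the quality filter. Their median depth was 16450, 14942, 13642 and 13836 UMIs per cell, and their summed UMIs were 10442160, 12087627, 4945460 and 8270313. At the edge of the rule, cells with exactly 3 of the 7 genes numbered 21, 21, 15 and 14, and cells held back for having only 2 numbered 16, 12, 16 and 20. A single gated barcode was shared by E13 WT and E15 WT, a single one by E13 WT and E15 HET, and a single one by both E15 libraries. Levels are given as CPM, the UMIs of a gene scaled to the same total of gated UMIs in each library, always in the order WT, HET, and changes as the log2 ratio of E15 to E13 with its standard error, from edgeR's quasi-likelihood test on 2 libraries per age. Genes are said to have risen or fallen where the adjusted p of that test (Benjamini-Hochberg, over all autosomal genes tested) was under 0.05. A summed level does not separate fewer expressing cells from fewer transcripts per cell, so shares of cells with at least 1 UMI, after every cell was thinned to 3000 UMIs, are added for leading genes.

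The genes used for the choice of cells are described here without a test. Twist2 stood at 823 and 793 CPM at E13 and at 952 and 1022 CPM at E15, and Twist1 at 119 and 113 CPM against 120 and 107 CPM. Pdgfra, the receptor for PDGF-A, stood at 90.6 and 87.1 CPM against 122 and 104 CPM. Prrx1 stood at 481 and 383 CPM against 314 and 323 CPM. The small proteoglycans Dcn (743 and 666 CPM against 1698 and 1844 CPM) and Lum (944 and 908 CPM against 1286 and 1683 CPM) stood higher at E15, and Mfap4 lower (298 and 395 CPM against 226 and 209 CPM). All of these genes were present in every library at both ages, which follows from the choice of cells and is no check on it. The marker Col1a1, which the rule did not use, was present in every library as well.

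Age moved together with sex and with traces of other cell types. All E13 libraries carried Xist (1229 and 1036 CPM in the control cells) and no UMI of Ddx3y, and all E15 libraries carried Ddx3y (62.5 and 73.6 CPM), so age and sex cannot be told apart. X and Y genes were left out for that reason. Trp63, the targeted gene, is epidermal and stood at 7.47 and 2.81 CPM in the E13 and 9.71 and 3.63 CPM in the E15 control fibroblasts. The sum of 15 keratinocyte genes was 389 and 233 CPM at E13 and 1833 and 644 CPM at E15, and 10 of the 15 rose. The sum of 10 erythroid genes was 38867 and 35829 CPM at E13 and 4604 and 11612 CPM at E15. Of 9 mast cell and neutrophil genes, 6 were tested and 6 rose, from sums of 3.73 and 14.9 CPM to 266 and 637 CPM. Muscle genes summed to 67.7 and 190 CPM at E13 and 28.7 and 27.4 CPM at E15. The sum of 10 cartilage genes was 39.4 and 18.9 CPM at E13 and 26.7 and 29.3 CPM at E15. Of 5 tested, Sox9 rose and Col2a1 fell, and Acan, Matn1 and Comp had no UMI in any control library. The part of these traces in the changes below was not tested.

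Across 12051 autosomal genes tested, 1978 were higher at E15 (16.4%) and 1574 were lower (13.1%). Of these, 882 and 641 differed at least 2-fold. Together 29.5% of all genes tested were called, the background for the list counts below. All 3552 changed in the same direction in the WT pair and in the HET pair, as did 9556 of all 12051 genes tested. Libraries did not overlap between ages for 1976 of the 1978 higher and all 1574 lower genes, against 71.2% of all genes tested. The calls came from these same libraries, so neither count is a separate check on them. The split depends on scaling: without the TMM factors (1.06, 1.05, 0.948 and 0.953, which correct for a few very abundant genes), 1509 genes were higher and 2707 lower, since the median of all genes then moved from 0.01 to -0.14. Higher genes made up 55.7% of the calls with TMM and 35.8% without.

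The sequences that the results below refer to are given first. The let-7 family of microRNAs shares 1 seed (bases 2 to 8, in capitals), shown here for 4 mature forms from the RefSeq miRNA table.
mmu-let-7a-5p: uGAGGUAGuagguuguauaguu
mmu-let-7c-5p: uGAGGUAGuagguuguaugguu
mmu-let-7g-5p: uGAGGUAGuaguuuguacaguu
mmu-miR-98-5p: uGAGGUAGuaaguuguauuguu

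Hmga2, a chromatin protein of fetal cells and a textbook let-7 target, has 4 matches to the reverse complement of that seed in its 3′ UTR (GRCm38 with GENCODE annotation, minus strand). Each is shown 5′ to 3′ on the transcript, with the 7-base match in capitals. They lie at chr10:120364218-120364245, chr10:120362981-120363008, chr10:120362543-120362570 and chr10:120361685-120361712, in that order.
Hmga2 match nearest the stop codon: ccgacattcaatttCTACCTCagcatca
Hmga2 next match: cccactcctcaataCTACCTCtgaatgc
Hmga2 further match: tgatttgcaaggaaCTACCTCcacactt
Hmga2 last match: atcaaaacacactaCTACCTCttaagtc

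A group of actomyosin genes fell together, and some of them carry a CArG box, the motif known to bind serum response factor, within 250 bases before to 50 bases after the start site. It was searched on both strands as the 10-base CArG box. The RefSeq promoters (GRCm38.p6) of Myl9 (chr2:156775214-156775513, plus strand, box 161 bases before the start) and Cnn2 (chr10:79988350-79988649, plus strand, box 56 bases before the start) are shown for 2 genes that fell. The promoter of Zfp36 (chr7:28379179-28379478, minus strand, box 58 bases before the start) is shown for an immediate early gene that rose. Capitals mark the box.
Myl9 promoter: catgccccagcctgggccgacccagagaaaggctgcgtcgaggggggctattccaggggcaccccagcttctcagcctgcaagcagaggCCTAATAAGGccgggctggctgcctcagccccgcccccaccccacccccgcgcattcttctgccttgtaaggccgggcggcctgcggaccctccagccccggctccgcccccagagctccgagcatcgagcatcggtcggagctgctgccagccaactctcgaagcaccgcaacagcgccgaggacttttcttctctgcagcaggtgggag
Cnn2 promoter: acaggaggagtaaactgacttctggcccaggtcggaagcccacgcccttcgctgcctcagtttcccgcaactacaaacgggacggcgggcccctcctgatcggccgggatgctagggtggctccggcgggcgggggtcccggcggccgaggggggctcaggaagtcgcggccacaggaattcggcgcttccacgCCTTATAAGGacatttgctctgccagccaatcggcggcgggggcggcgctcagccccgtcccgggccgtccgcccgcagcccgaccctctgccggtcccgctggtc
Zfp36 promoter: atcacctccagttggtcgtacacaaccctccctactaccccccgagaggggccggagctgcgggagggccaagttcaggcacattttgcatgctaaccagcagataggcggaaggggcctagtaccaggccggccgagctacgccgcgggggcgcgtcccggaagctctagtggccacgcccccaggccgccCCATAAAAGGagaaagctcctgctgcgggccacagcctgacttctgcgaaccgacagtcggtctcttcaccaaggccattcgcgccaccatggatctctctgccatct

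Collagen genes rose from E13 to E15. Col1a1, the main chain of type I collagen (chr11:94936224-94953042, GRCm38, plus strand), was at 1095 and 773 CPM at E13 and at 4883 and 4099 CPM at E15, a change of 2.42 ± 0.17, or 5.34-fold. The ages did not overlap, and edgeR's quasi-likelihood test with Benjamini-Hochberg adjustment gave adjusted p = 0.00014. Col1a2, its partner chain, was at 1396 and 1151 CPM against 4317 and 4091 CPM (1.87 ± 0.11). Col3a1, which copolymerises with type I collagen in fetal skin, was at 1257 and 1021 CPM against 4468 and 4072 CPM (2.06 ± 0.12). Of 9 fibrillar collagens tested of 10 listed, 8 rose and 1 fell, with a median change of 1.84 beside 0.01 over all genes. The type V chains that nucleate fibrils rose by 1.84 ± 0.12 (Col5a1) and 1.39 ± 0.11 (Col5a2). Col5a3 went from 3 UMIs in the E13 libraries to 72 in the E15 libraries, 58 of them in E15 WT, a ratio of 40.9 with an exact 95% counting interval of 13.5 to 203. Col24a1 (11.6 and 11.8 CPM against 5.66 and 6.05 CPM) fell. Its call was lost without E13 WT or E13 HET, and those of Col11a1 and Col27a1, among the 8 that rose, without E13 HET or E15 WT.

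Among 15 collagens that coat fibrils or form networks, 9 rose and 1 fell (median 1.53). Col6a3, a chain of beaded microfibrils (chr1:90765923-90843971, GRCm38, minus strand), was at 49.9 and 76.8 CPM at E13 and at 576 and 598 CPM at E15. This was a change of 3.36 ± 0.20, and the ages did not overlap. The share of cells with a Col6a3 UMI after thinning was 13.7% and 20.4% at E13 and 77.7% and 77.4% at E15. Its partner chains changed less, Col6a1 by 1.53 ± 0.09 and Col6a2 by 1.5 ± 0.10. Col7a1, the anchoring fibril collagen at the junction with the epidermis, was at 18.3 and 20.1 CPM against 90.0 and 96.9 CPM (2.43 ± 0.11). Col14a1 and Col16a1, which associate with fibrils, rose by 2.23 ± 0.17 and 2.17 ± 0.13. Col15a1, a basement-membrane-zone collagen, rose by 3.40 ± 0.32 from near 1 CPM. The basement membrane chains Col4a1 (1.83 ± 0.21) and Col4a2 (1.67 ± 0.18) rose as well. Col12a1, a fibril-associated collagen, was at 139 and 110 CPM against 192 and 123 CPM and did not pass the test. The single gene of this list that fell, Col18a1, lost the call without any one of the 4 libraries.

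Most genes that modify and crosslink collagen rose. Of 25 tested genes of this list, 19 rose and 1 fell, with a median of 0.76. P4ha2, a catalytic subunit of prolyl 4-hydroxylase, was at 17.8 and 17.7 CPM at E13 and at 155 and 148 CPM at E15 (3.24 ± 0.11, adjusted p = 1.2e-05 by edgeR's quasi-likelihood test with Benjamini-Hochberg adjustment). Its share of cells was 4.99% and 5.21% against 36.6% and 34.6%. The catalytic subunit P4ha1 was at 85.7 and 81.1 CPM against 131 and 152 CPM (0.92 ± 0.11), while the catalytic subunit P4ha3 did not pass. The shared beta subunit P4hb rose by 0.88 ± 0.09. All 3 members of the prolyl 3-hydroxylation complex rose, P3h1 by 1.31 ± 0.10, Crtap by 1.16 ± 0.16 and Ppib by 0.76 ± 0.08. The lysyl hydroxylase Plod1 was at 52.2 and 48.7 CPM against 92.2 and 115 CPM (1.2 ± 0.13), while Plod2 (23.5 and 18.6 CPM against 26.9 and 19 CPM) did not pass. The collagen chaperone Serpinh1 was at 1851 and 1736 CPM against 2667 and 2820 CPM (0.76 ± 0.09). The procollagen proteinase Adamts2 rose by 1.37 ± 0.11, its relative Adamts14 by 2.26 ± 0.22, and the enhancer Pcolce by 0.72 ± 0.09. The collagen-binding protein Sparc was at 1566 and 1395 CPM against 3197 and 3495 CPM (1.33 ± 0.10). The crosslinking oxidases Loxl1 (33.3 and 30.3 CPM against 93.8 and 46.6 CPM) and Lox (99.2 and 81.9 CPM against 174 and 112 CPM) rose, with E15 WT above E15 HET in both. Without E15 WT the change of Loxl1 was 0.70 in place of 1.27. P3h2, the gene that fell, lost its call without E13 WT or without E15 HET.

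**Figure D1:**
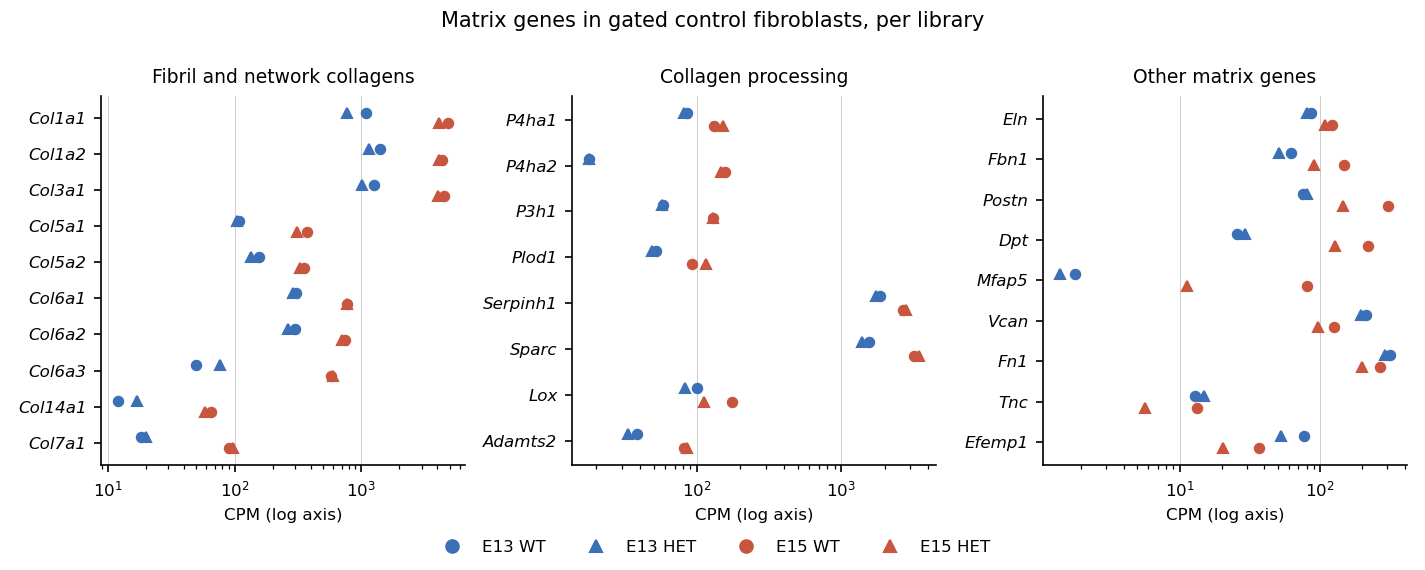
CPM of collagen, collagen-processing and other matrix genes in each control library on a log axis, with E13 in blue, E15 in red, circles for WT and triangles for HET. For Col1a1, Col6a3 and P4ha2 both E15 points lie above both E13 points, while Efemp1 lies lower at E15.

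Elastic fibre genes changed by less. Of 16 tested, 10 rose and 2 fell, with a median of 0.56. Eln, the elastin precursor, was at 86.6 and 80.7 CPM against 122 and 108 CPM (0.60 ± 0.11), and the microfibril protein Mfap2 at 765 and 703 CPM against 1047 and 1046 CPM (0.66 ± 0.09). Fbn1, the scaffold of microfibrils, rose by 1.21 ± 0.22. Its fetal relative Fbn2 was at 269 and 235 CPM against 265 and 217 CPM and did not pass. Mfap5 was at 1.82 and 1.41 CPM against 80.3 and 11.4 CPM, so its change of 4.91 ± 0.96 was carried largely by E15 WT and was 2.97 without that library. Efemp1 (76.4 and 52.5 CPM against 36.8 and 20.3 CPM) and Ltbp1 (41.7 and 36.1 CPM against 26.7 and 21.5 CPM), binders of elastin and of latent TGF-β, fell. Both calls were lost without E15 HET, and that of Ltbp1 also without E13 WT.

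Adhesive and hyaluronan-associated genes were mixed. Of 19 adhesive glycoproteins tested of 23 listed, 9 rose and 2 fell (median 0.54). Lama2, a laminin chain, was at 9.48 and 12.7 CPM against 38.6 and 37.6 CPM (1.92 ± 0.16), and Thbs2 and Matn2 rose by 1.92 ± 0.21 and 1.64 ± 0.14. Fn1, fibronectin, was at 316 and 288 CPM against 268 and 200 CPM and did not pass. Smoc2 fell by 1.08 ± 0.15 on the log2 scale. Among hyaluronan and large proteoglycan genes, 7 of 12 tested rose and 2 fell. The hyaluronan receptor Cd44 was at 21.8 and 22.7 CPM against 107 and 74.4 CPM (2.16 ± 0.18). The hyaluronan synthase Has1 had no UMI at E13 and 32 UMIs at E15, at least 18.2-fold higher against a floor of 3 UMIs over the E13 libraries. Vcan, the large proteoglycan of loose embryonic mesenchyme, was at 211 and 195 CPM against 125 and 96.9 CPM and fell by 0.73 ± 0.13. Of 21 matrix proteases and inhibitors, 9 rose and 2 fell, led by the membrane-bound Mmp23 at 6.13 and 5.13 CPM against 46.3 and 45.7 CPM (3.18 ± 0.14).

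Genes that rose were found among markers of the upper and of the lower dermis. Of 18 superficial dermis genes, 9 rose and 1 fell (median 0.91). Trps1, a repressor known from hair and skeletal syndromes, was at 4.69 and 4.63 CPM against 111 and 79.9 CPM (4.49 ± 0.20). Cav1, the caveolar coat protein, was at 23.7 and 13.1 CPM against 273 and 268 CPM (4.04 ± 0.24), and 7.39% and 3.91% of cells against 46.9% and 49.8% had a UMI. Runx1 was at 20 and 18.6 CPM against 57.8 and 55.6 CPM (1.70 ± 0.11), and the Wnt antagonist Wif1 at 83.1 and 60.0 CPM against 199 and 204 CPM (1.65 ± 0.15). Lef1, the transcription factor of the Wnt response, was at 68.1 and 69.6 CPM against 68.5 and 65.2 CPM, and Crabp1 at 1990 and 2471 CPM against 1934 and 2711 CPM. Neither passed the test. Dkk2, another Wnt antagonist, was the gene that fell, from 83.5 and 59.9 CPM to 20.6 and 10.0 CPM.

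Of 15 deep dermis and fascia genes tested of 20 listed, 10 rose and 1 fell (median 1.38). The E15 libraries differed here. Clec3b, which encodes tetranectin, was at 0.383 and 0.331 CPM against 112 and 27.2 CPM (7.67 ± 0.95). Ly6a, which encodes the surface protein Sca-1, had 2 UMIs at E13 and 130 and 29 UMIs in E15 WT and E15 HET, a ratio of 136 with a counting interval of 36.9 to 1129. All E15 values lay above the E13 values, and E15 WT lay above E15 HET in both genes. Without E15 WT the change of Clec3b was 6.36. Thbd, which encodes thrombomodulin, was even between the E15 libraries at 22.2 and 27.0 CPM, against 1.72 and 1.49 CPM at E13 (4.09 ± 0.21). Dpt, a small matrix protein, was at 25.8 and 29.0 CPM against 219 and 128 CPM (2.80 ± 0.25). Tgfbi, the gene that fell, was at 49.6 and 46.3 CPM against 19.8 and 24.3 CPM.

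Part of the adipogenic genes rose, several from low levels. Of 17 tested of 21 listed, 9 rose and 8 did not pass (median 1.30). Pparg, the master regulator of adipocytes, was at 0.575 and 0.827 CPM against 12.1 and 10.9 CPM (4.14 ± 0.32), and Cebpa at 6.03 and 6.04 CPM against 42.5 and 29.9 CPM (2.71 ± 0.20). The early B cell factor Ebf1 was at 53.3 and 52.2 CPM against 277 and 203 CPM (2.33 ± 0.16), with a UMI in 9.80% and 9.84% of cells against 31.4% and 27.6%. The lipase Lpl rose by 1.92 ± 0.20. Fabp4, a fatty acid carrier of adipocytes and endothelium, had 1 UMI at E13 and 22 and 105 UMIs at E15, a ratio of 217 with a counting interval of 38.2 to 8618. The lipid droplet protein Plin2 was at 73.4 and 74.0 CPM against 60.3 and 69.8 CPM and did not pass.

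Dermal condensate genes gave the list with the highest median change among the 39 functional lists. All 24 listed genes were tested, 19 rose and 4 fell, with a median of 2.33. The transcription factor genes Foxd1, Sox18 and Sox2 were nearly silent at E13. Foxd1 had no UMI at E13 and 43 and 42 at E15, at least 48.3-fold higher against the floor of 3 UMIs. Sox18 had 1 UMI against 94 and 68, a ratio of 276 with a counting interval of 48.9 to 10974.7. Sox2 had 3 UMIs against 24 and 40, a ratio of 36.4 with a counting interval of 11.9 to 181. Sox18 is also an endothelial gene. The 9 endothelial markers summed to 38.7 and 28.6 CPM at E13 and 40.8 and 51.1 CPM at E15, and Cdh5 is at 0 by the choice of cells. Of these 9, Tek and Plvap rose and 7 did not pass, with a median of 0.75. The part of endothelial RNA in the Sox18 change was not tested. Cdkn1a, the cell cycle inhibitor p21, was at 12.8 and 12.1 CPM against 59.7 and 62.5 CPM (2.45 ± 0.11). Bmp3 was at 2.20 and 0.579 CPM against 24.5 and 9.79 CPM (3.76 ± 0.60), and Prdm1, a repressor of the hair lineage, at 1.15 and 1.41 CPM against 10.5 and 7.38 CPM (2.92 ± 0.34). Without E13 WT the change of Bmp3 was 4.95, without E13 HET 3.06 and without E15 WT 3.0. The secreted factors Igfbp4 (541 and 351 CPM against 155 and 98.1 CPM) and Inhba (107 and 69.5 CPM against 25.7 and 31.4 CPM) fell.

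Hedgehog target genes rose, and several transducers of the pathway did not pass the test. Epidermal Sonic hedgehog acts through the receptor Ptch1, whose own gene is a target. Ptch1 (chr13:63508328-63573598, GRCm38, minus strand) was at 3.45 and 3.06 CPM at E13 and at 79.1 and 69.9 CPM at E15, a change of 4.66 ± 0.15, or 25.3-fold. The ages did not overlap, and edgeR's quasi-likelihood test with Benjamini-Hochberg adjustment gave adjusted p = 1e-05. A UMI was found in 0.37% and 1.01% of cells at E13 and in 20.6% and 17.2% at E15. Gli1, the transcriptional effector and target, was at 1.92 and 2.98 CPM against 29.5 and 28.7 CPM (3.69 ± 0.21). The decoy receptor Hhip rose by 1.53 ± 0.27. Smo (78.0 and 72.1 CPM against 77.8 and 63.0 CPM), Sufu and Gli3 did not pass. Of 11 tested members, 6 rose and 5 did not pass. One of the 6, Gli2, lost its call without E13 WT, E13 HET or E15 WT.

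Among FGF genes, 2 receptors and several feedback genes rose, and ligands changed in both directions. Fgfr1, the main mesenchymal receptor, was at 100 and 103 CPM against 317 and 288 CPM (1.72 ± 0.10). Fgfr2 was at 23.0 and 19.7 CPM against 52.4 and 44.9 CPM (1.33 ± 0.13), and Fgf10, which signals to the epithelium, at 4.41 and 2.56 CPM against 16.2 and 15.7 CPM (2.35 ± 0.26). Of 11 FGF ligands and receptors tested, 4 rose and 2 fell. Those that fell were the ligands Fgf9 and Fgf18, and the call of Fgf9 was lost without E13 HET or E15 HET. Of 12 tested genes of the ERK response, 8 rose and 4 did not pass (median 0.78). Etv1 was at 3.54 and 2.56 CPM against 10.7 and 13.3 CPM (2.14 ± 0.26), and the feedback inhibitors Spry2 and Spry1 rose by 1.42 ± 0.22 and 0.85 ± 0.12. The phosphatase gene Dusp6 was at 26.6 and 27.8 CPM against 28.3 and 27.3 CPM and did not pass.

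BMP and TGF-β genes changed in both directions. Of 23 ligands and inhibitors tested of 28 listed, 11 rose and 5 fell (median 0.60). The BMP antagonists Smoc1 (1.05 and 1.41 CPM against 19 and 15.2 CPM, 3.91 ± 0.27) and Fst (15.4 and 16.1 CPM against 28.7 and 40.0 CPM, 1.29 ± 0.17) rose. Tgfb1 rose by 1.21 ± 0.17 and Tgfb2 fell by 1.71 ± 0.25. Of 13 response genes, 3 rose and 3 fell, with a median of 0.02. Id3, a direct BMP target, was at 446 and 448 CPM against 275 and 228 CPM and fell by 0.68 ± 0.11. Id1 was at 168 and 163 CPM against 109 and 155 CPM and did not pass. Cyr61, a matricellular protein also known as Ccn1, was at 156 and 135 CPM against 314 and 326 CPM (1.29 ± 0.10).

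Wnt genes changed in both directions. Of 12 ligands and R-spondins tested of 16 listed, 5 fell and 1 rose (median -0.66). Wnt6 was at 61.8 and 52.5 CPM against 33.0 and 33.0 CPM and fell by 0.64 ± 0.12. The calls of Wnt5a, Wnt5b and Wnt3 were lost without E13 WT, those of Wnt5b, Wnt11 and Wnt3 without E13 HET, and those of Wnt11 and Wnt3 without E15 HET. Rspo3, which potentiates Wnt signals, was at 31.9 and 39.4 CPM against 109 and 97.5 CPM (1.68 ± 0.14). Sfrp1 was at 173 and 114 CPM against 22.4 and 15.1 CPM (-2.82 ± 0.25), while its relative Sfrp5 was at 6.70 and 7.28 CPM against 78.1 and 116 CPM (3.95 ± 0.21). Of 27 Wnt receptors and inhibitors tested, 11 rose, 5 fell and 11 did not pass, Sfrp2, Dkk3, Frzb and Sostdc1 among the last. A Sfrp1 UMI was present in 29.2% and 24.9% of cells at E13 and in 6% and 5.20% at E15, and a Sfrp5 UMI in 1.66% and 1.59% against 14.9% and 24.6%. Notum, an extracellular enzyme that inactivates Wnt ligands, was at 35.3 and 32.2 CPM against 7.08 and 5.32 CPM (-2.33 ± 0.17). Of 15 response genes, 2 rose and 3 fell, and these 33.3% were near the 29.5% called over all genes tested. Sp5 was among those that fell, at 86.0 and 86.2 CPM against 26.7 and 33.0 CPM (-1.36 ± 0.13). Axin2, the general Wnt feedback gene, was at 65.2 and 49.7 CPM against 42.9 and 41.5 CPM and did not pass.

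**Figure D2:**
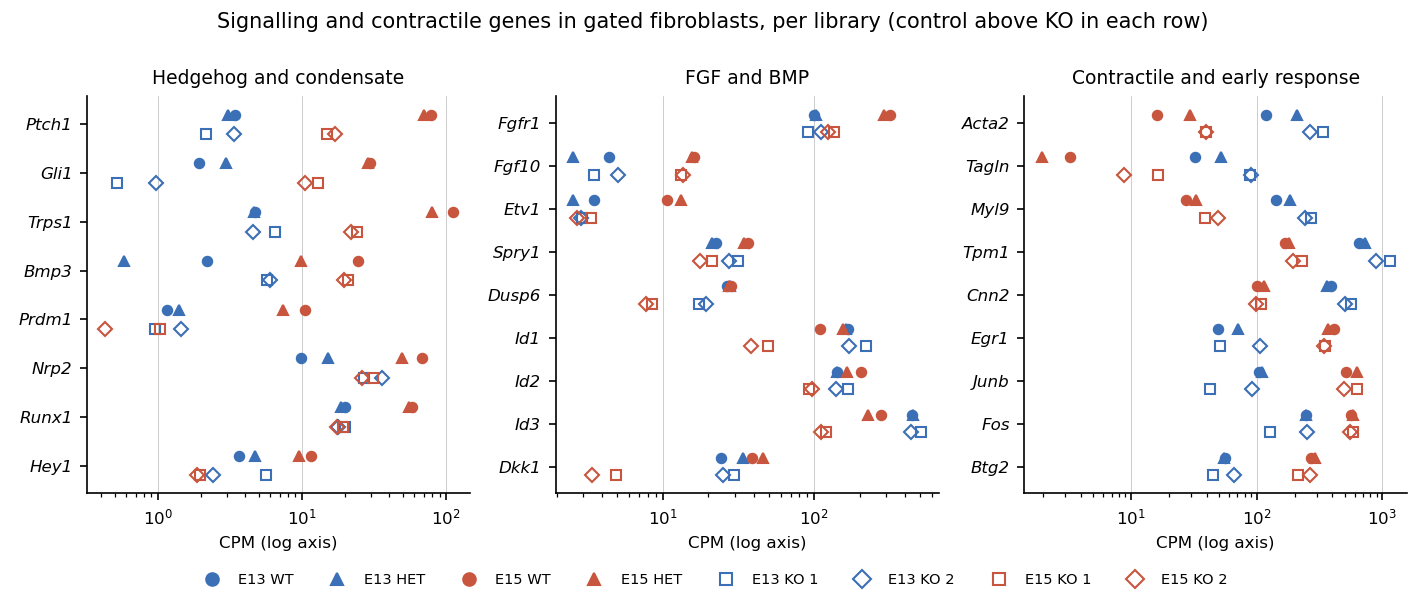
CPM on a log axis of condensate and Hedgehog genes, of FGF, BMP and Wnt genes and of contractile and immediate early genes in all 8 libraries, with control libraries as filled symbols above KO libraries as open symbols, E13 in blue and E15 in red. Ptch1 lies higher at E15 in both arms, and Runx1 and Nrp2 lie higher at E15 only among the control points.

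Retinoic acid genes changed in both directions. Stra6, the receptor that takes up retinol, was at 24.9 and 21 CPM at E13 and at 1.01 and 0.121 CPM at E15 (-5.45 ± 0.43). Rarb, a receptor and target of retinoic acid, was at 8.71 and 9.93 CPM against 0.809 and 0.846 CPM (-3.32 ± 0.33). The carrier Crabp2 (132 and 131 CPM against 33.6 and 24.3 CPM) fell by 2.06 ± 0.16. Cyp26b1, the enzyme that degrades retinoic acid, was at 0.670 and 1.32 CPM against 38.4 and 29.6 CPM (5.18 ± 0.28, adjusted p = 5e-05 by edgeR's quasi-likelihood test with Benjamini-Hochberg adjustment). Without E15 WT the change of Stra6 was -7.29 and without E15 HET -4.34, and without E13 HET that of Cyp26b1 was 5.77. In all, 3 of 12 tested genes rose and 5 fell. Rbp4, the retinol carrier of plasma, was at 1.44 and 2.23 CPM against 24.1 and 11.4 CPM and rose, with E15 WT above E15 HET, and the retinal reductase Dhrs3 rose by 1.52 ± 0.28. The receptors Rara and Rarg did not pass, nor did the carrier Crabp1.

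Of 31 guidance genes tested, 13 rose, 5 fell and 13 did not pass (median 0.57). The semaphorin and VEGF coreceptors moved apart: Nrp2 was at 9.77 and 15.1 CPM against 68.3 and 49.7 CPM (2.37 ± 0.23), and Nrp1 at 404 and 475 CPM against 226 and 274 CPM (-0.66 ± 0.13). The netrin receptor Unc5b rose by 1.94 ± 0.22 and the semaphorin Sema3d by 1.19 ± 0.12. The ephrin receptors Epha4 (40.9 and 35.6 CPM against 14 and 11 CPM) and Epha7 fell by 1.49 ± 0.16 and 1.92 ± 0.33, and Ephb2 rose by 0.88 ± 0.16. Of the PDGF genes outside the choice of cells, the ligand Pdgfc was at 13.9 and 13.3 CPM against 4.85 and 3.87 CPM (-1.51 ± 0.21) and the receptor Pdgfrb at 46.3 and 53.0 CPM against 47.7 and 47.0 CPM. Of 14 Notch pathway genes, 2 rose and 1 fell, so that 21.4% were called beside 29.5% of all genes tested.

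Hmga2 and a few other regulators of the fetal state fell. Hmga2 (chr10:120361275-120476469, GRCm38, minus strand) was at 208 and 258 CPM at E13 and at 22.4 and 26.7 CPM at E15, a change of -3.08 ± 0.15, or 8.47-fold lower. The ages did not overlap, and edgeR's quasi-likelihood test with Benjamini-Hochberg adjustment gave adjusted p = 4e-05. An Hmga2 UMI was present in 43.3% and 50.9% of thinned cells at E13 and in 4.57% and 5.73% at E15. Without thinning the shares were 85.8%, 89.3%, 22.4% and 27.8%. The mRNA-binding proteins Igf2bp1 (89.5 and 94.9 CPM against 54.6 and 53.4 CPM) and Igf2bp3 (114 and 112 CPM against 55.8 and 64.7 CPM) fell by 0.62 ± 0.10 and 0.75 ± 0.11. Igf2bp2 (101 and 102 CPM against 76.2 and 85.0 CPM) did not pass. Mycn and Arid3a fell, and each lost its call without E13 WT or E15 WT, and Mycn also without E13 HET. Lin28a, the inhibitor of let-7 processing, had no UMI in any control library, and Lin28b had 1 and 6 UMIs against 0 and 1. In all, 5 of 15 tested genes of this axis fell and 10 did not pass (median -0.41). The 33.3% called was near the 29.5% called over all genes tested, and 13.1% of all genes tested fell.

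The let-7 seed match was about as frequent among genes that fell as among all genes. Of 11594 tested genes with an annotated 3′ UTR, 1386 (12%) had at least 1 match. Among genes that fell it was 189 of 1540 (12.3%), and among genes that rose 204 of 1881 (10.8%). Of 25 genes with 3 or more matches, 8 fell and 1 rose. Of 185 with 2 or more, 24 (13%) fell and 33 (17.8%) rose. Over all 11594 genes 13.3% fell and 16.2% rose. The median 3′ UTR length was 4457 bases for the 25 genes and 1393 for all. Genes with 3 or more matches include Hmga2 and Igf2bp1, with 4 matches each. Hic2, also with 4, was at 13.6 and 14.6 CPM against 13.5 and 13.8 CPM, and Nr6a1, with 8, at 2.68 and 2.32 CPM against 1.82 and 1.09 CPM. Neither passed. Mature let-7 is not captured by poly(A)-primed libraries, so its level is not known here.

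Imprinted growth genes were split. Of 29 tested, 5 rose and 6 fell (median -0.03). Nnat, which encodes neuronatin, was at 472 and 417 CPM against 29.7 and 39.3 CPM (-3.52 ± 0.15) and was found in 72.5% and 64.1% of cells against 7.14% and 9.5%. Mest (867 and 869 CPM against 369 and 326 CPM), Peg3 (1056 and 950 CPM against 481 and 498 CPM) and the fetal growth factor Igf2 (1228 and 1207 CPM against 709 and 599 CPM) fell by 1.17 ± 0.10, 0.89 ± 0.09 and 0.75 ± 0.11. H19, the noncoding neighbour of Igf2, was at 1299 and 1255 CPM against 1174 and 928 CPM, and Dlk1 at 1797 and 1561 CPM against 2111 and 1259 CPM. Neither passed. Igf2r, which clears Igf2, rose by 1.22 ± 0.16. Among IGF binding proteins and their proteases, Igfbp2 (228 and 279 CPM against 77.4 and 64.1 CPM) fell by 1.70 ± 0.14, and the protease gene Htra3 (2.11 and 2.15 CPM against 54.4 and 37.7 CPM) rose by 4.56 ± 0.24.

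Positional and dermomyotome transcription factors declined in part. Of 33 such factors tested of 47 listed, 10 rose and 12 fell. Foxp2 (32.5 and 23.2 CPM against 3.64 and 4.11 CPM), Foxp1 (51.2 and 47.7 CPM against 14.2 and 13.9 CPM) and Zic4 (87.6 and 56.1 CPM against 18.4 and 11.7 CPM) fell by 2.67 ± 0.23, 1.67 ± 0.12 and 2.14 ± 0.27. Osr1, a marker of loose connective tissue, fell by 0.87 ± 0.10. Shox2 rose by 2.42 ± 0.16, from 17.1 and 22.8 CPM to 89.0 and 104 CPM, and En1, a marker of the scarring fibroblast lineage, was at 88.8 and 75.1 CPM against 76.2 and 60.5 CPM and did not pass. Of 24 Hox genes, 7 fell and 4 rose. Hoxc5 was at 174 and 142 CPM against 9.91 and 16.4 CPM (-3.39 ± 0.21), and its neighbour Hoxc4 at 106 and 74.3 CPM against 32.2 and 34.5 CPM (-1.28 ± 0.18). The posterior genes Hoxc10 (21.1 and 6.95 CPM against 20.4 and 77.9 CPM), Hoxa10 (1.82 and 1.99 CPM against 1.82 and 20.2 CPM) and Hoxb9 (4.12 and 5.63 CPM against 8.90 and 25.8 CPM) were highest in E15 HET, and their calls were lost without that library. Leaving out single libraries changed the Hox counts to between 1 and 5 risen and between 5 and 10 fallen. The body level of each dissection is not given in the labels.

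Most contractile genes fell and most immediate early genes rose. Acta2, smooth muscle actin and a marker of myofibroblasts (chr19:34241090-34255590, GRCm38, minus strand), was at 119 and 209 CPM at E13 and at 16 and 29.5 CPM at E15 (-2.66 ± 0.33, 6.34-fold lower). The ages did not overlap, and the share of cells with a UMI was 19.2% and 30.2% against 2.57% and 6.45%. Tagln was at 32.5 and 51.8 CPM against 3.24 and 1.93 CPM (-3.96 ± 0.34), Myl9, the regulatory myosin light chain, at 143 and 183 CPM against 27.3 and 32.9 CPM (-2.27 ± 0.16), and Tpm1, a tropomyosin, at 654 and 723 CPM against 169 and 180 CPM (-1.83 ± 0.10). Cnn2, a calponin, was at 388 and 363 CPM against 100 and 115 CPM (-1.65 ± 0.10). The focal adhesion proteins Zyx and Vcl fell by 1.34 ± 0.19 and 0.72 ± 0.16, while Itgb1 and Pxn did not pass. Of 17 tested genes of the list, 11 fell and 1 rose (median -1.18). Leaving out single libraries left 10 or 11 fallen. Mural cells share Acta2, Tagln and Myl9. The 8 mural markers summed to 30.9 and 61.6 CPM at E13 and 131 and 69.2 CPM at E15, and of 7 tested 2 rose and 1, the muscle and pericyte gene Des, fell. The 11 muscle markers summed to 67.7 and 190 CPM at E13 and 28.7 and 27.4 CPM at E15, and Myf5, Actc1 and Tnnt1 fell. E13 HET was the highest library for the muscle sum and for Acta2, Tagln and Myl9. The part of mural and muscle RNA in the contractile genes was not tested.

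Of 19 immediate early genes, 14 rose and 1 fell (median 1.16). Egr1 was at 48.7 and 71.1 CPM against 411 and 371 CPM (2.85 ± 0.18), Junb at 104 and 110 CPM against 516 and 630 CPM (2.57 ± 0.12), Fos at 249 and 247 CPM against 559 and 581 CPM (1.35 ± 0.09), and the antiproliferative gene Btg2 at 56.1 and 54.8 CPM against 270 and 292 CPM (2.49 ± 0.10). Zfp36, which destabilises inflammatory mRNAs, was at 12.1 and 16.6 CPM against 53.8 and 54.2 CPM (2.05 ± 0.16). Jun did not pass, at 193 and 177 CPM against 170 and 157 CPM, and Klf6 fell. These genes are also known to be induced when tissue is dissociated with enzymes, and the part of that step was not tested. A CArG box was found in 3 of 15 contractile genes with a promoter in the table (Cnn2, Myl9 and Vcl, all lower at E15) and in 2 of 17 immediate early genes (Egr2 and Zfp36, both higher), against 1.61% of tested genes and 1.63% of all 32851 promoters.

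Part of the S phase genes fell. Of 44 S phase genes, 16 fell and 1 rose (median -0.30). Cdca7 was at 88.1 and 85.3 CPM against 37.0 and 33.0 CPM (-1.16 ± 0.11), and the helicase subunit Mcm2 at 78.5 and 79.9 CPM against 40.0 and 51.4 CPM (-0.63 ± 0.13). Of 53 G2 and M phase genes, 10 rose and 5 fell (median 0.09), and these 28.3% were near the 29.5% called over all genes tested. Without TMM factors 4 rose and 12 fell, so this list has no direction that holds across scalings. Hjurp, which loads centromeric histone, was at 73.7 and 70.5 CPM against 114 and 132 CPM (0.92 ± 0.11). At 3000 UMIs, 76.2% and 79.3% of cells at E13 and 62.0% and 74.0% at E15 had a UMI of at least 1 of 9 cycling genes, so that E15 WT lay below the other libraries. Unthinned shares were 97.4%, 98.4%, 87.0% and 95.3%. Among 19 brakes on the cycle, 6 rose and 2 fell. The inhibitor genes Cdkn1a and Cdkn2c rose by 2.45 ± 0.11 and 1.49 ± 0.14, while Cdkn1c, also imprinted, was at 1555 and 1516 CPM against 1713 and 1336 CPM and did not pass.

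Most ribosomal protein genes rose slightly. Of 52, 38 rose and 14 did not pass, with a median of 0.38. Without TMM factors 24 rose, and leaving out single libraries left between 21 and 33. Rps15 was at 2481 and 2573 CPM against 2980 and 3144 CPM (0.43 ± 0.09), and its call was lost without E13 WT. Of 24 glycolysis and hypoxia genes, 5 rose and 7 fell. Pkm, pyruvate kinase, was at 858 and 946 CPM against 379 and 448 CPM (-0.97 ± 0.11), and the neuronal-type glucose transporter Slc2a3 fell by 1.96 ± 0.34. The hypoxia-induced genes Egln3 and Ndrg1 rose by 2.41 ± 0.31 and 1.04 ± 0.15. Ribosome biogenesis and MYC target genes showed 5 risen and 3 fallen of 25, and 2 risen and 8 fallen without TMM factors. The 32% called with TMM factors was near the 29.5% of all genes tested.

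Genes of immune signalling were higher in part. Of 15 MHC class I and interferon genes tested of 20 listed, 8 rose and 7 did not pass (median 0.69). H2-K1, a classical MHC class I heavy chain, was at 9.67 and 10.1 CPM against 35.6 and 48.1 CPM (2.24 ± 0.17), and Irf1 at 7.37 and 9.60 CPM against 30.1 and 43.3 CPM (2.27 ± 0.21). Among 14 cytokine, complement and chemokine genes, 5 rose and 2 fell. Kitl, the ligand that mast cells and melanoblasts need, was at 22.2 and 20.6 CPM against 120 and 88.5 CPM (2.42 ± 0.16). Cxcl1, a neutrophil chemokine, was at 1.15 and 0.414 CPM against 17.8 and 19.1 CPM (4.73 ± 0.34). Cd55, a complement regulator and a fascia marker, was at 0.862 and 0.910 CPM against 27.5 and 7.50 CPM (4.37 ± 0.68), again higher in E15 WT. Without E15 WT the change of Cd55 was 3.21 and without E15 HET 5.07, and that of Cxcl1 was 5.57 without E13 WT and 4.14 without E13 HET. Of 6 mast cell and neutrophil markers tested, 6 rose, with sums of 3.73 and 14.9 CPM at E13 and 266 and 637 CPM at E15. The 11 macrophage markers summed to 69.8 and 109 CPM at E13 and 69.0 and 124 CPM at E15, and 2 of them, Tyrobp and Fcer1g, rose. The part of these cells in the immune genes was not tested.

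**Figure D3:**
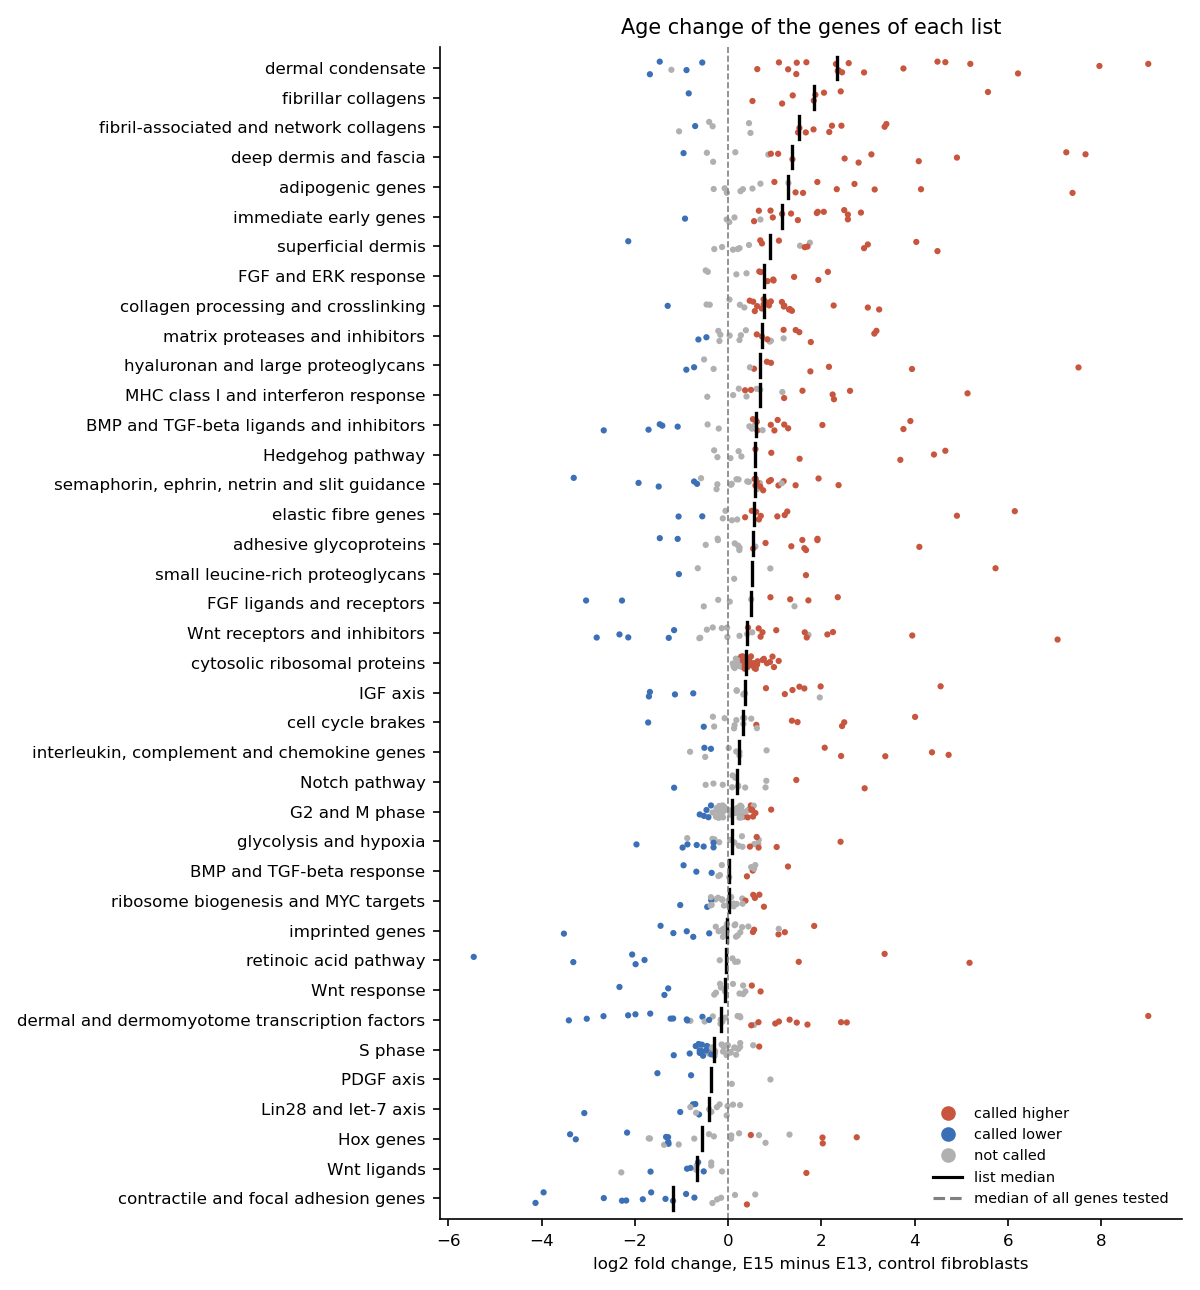
Log2 change from E13 to E15 of every tested gene in each of the 39 lists, with genes that rose in red, genes that fell in blue, other genes in grey, a black bar at each list's median and a dashed line at the median of all genes tested (0.01). The dermal condensate list has its median at 2.33 and the contractile list at -1.18.

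The genes with the largest changes included several outside these lists. They were taken as the 15 largest rises and 15 largest falls among genes that passed, did not overlap between ages and reached a mean of 50 CPM at the higher age, leaving out the genes of the choice of cells and markers of other cell types. Cldn10, a tight junction protein, was at 0.479 and 0.414 CPM against 85.7 and 86.3 CPM (7.70 ± 0.18), with a UMI in no E13 WT cell (0 of 541, an exact 95% interval up to 0.68%), 0.289% of E13 HET cells and 20.6% and 22% at E15. Itih5, which binds hyaluronan, was at 1.53 and 3.14 CPM against 125 and 110 CPM (5.76 ± 0.24). Mef2c, a transcription factor of muscle and endothelium, was at 13.9 and 18.6 CPM against 202 and 182 CPM (3.70 ± 0.16). Penk, the enkephalin precursor, was at 51.6 and 36.0 CPM against 318 and 392 CPM (3.18 ± 0.19) and was found in 11.5% and 9.26% of cells against 50.6% and 60.6%. Lgals7, known from stratified epithelium, was at 4.98 and 2.81 CPM against 167 and 79.9 CPM (5.14 ± 0.42), beside the rise in summed keratinocyte markers. Without E13 HET the change of Itih5 was 6.39, and without E15 WT that of Lgals7 was 4.53. The keratinocyte marker Krt14 had a UMI in 21.3% and 16.2% of thinned cells at E13 and 34.0% and 29.9% at E15. Lgals7 was found in 1.66% and 1.01% at E13 and 24% and 22.4% at E15. The part of keratinocyte RNA in the Lgals7 change was not tested.

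Falls of similar size were seen in genes known from neurons. Calb1, a calcium buffer, was at 103 and 110 CPM against 0.607 and 0.242 CPM (-7.94 ± 0.24) and was found in 20.1% and 21.6% of cells against 0.286% and 0.179%. Without E15 WT that change was -8.57 and without E15 HET -7.29. Ntm, a neural adhesion molecule, was at 154 and 115 CPM against 4.45 and 3.26 CPM (-5.01 ± 0.22), and Tubb2b, a tubulin of immature neurons, at 784 and 691 CPM against 93.0 and 96.9 CPM (-2.81 ± 0.10). Tubb2b was found in 84.3% and 78.1% of cells at E13, and in 23.4% and 24% at E15. Nrgn, which binds calmodulin, was at 254 and 130 CPM against 12.5 and 17.8 CPM, and the zinc finger gene Casz1 at 64.8 and 66.0 CPM against 8.09 and 9.31 CPM. Of 7 neuron markers tested of 10 listed, 4 fell (Tubb3, Nefm, Nefl and Gap43) and 2 rose (Map2 and Stmn2), with a median of -1.41, while the sum of all 10 was 332 and 325 CPM at E13 and 354 and 281 CPM at E15. The part of neuronal RNA in these falls was not tested.

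**Figure D4:**
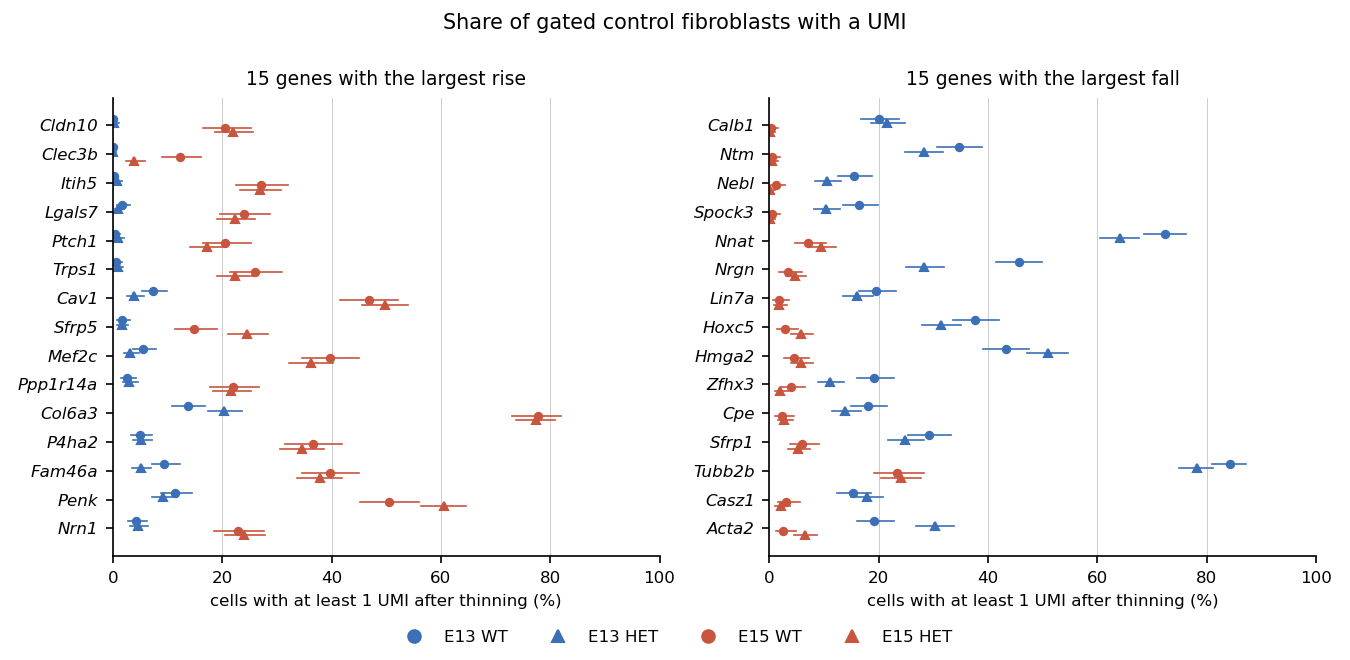
Share of fibroblasts with at least 1 UMI after each cell was thinned to 3000 UMIs, for the 15 genes with the largest rises and the 15 with the largest falls, per control library, with exact 95% binomial intervals that cover counting error only. Hmga2 drops from 43.3% and 50.9% to 4.57% and 5.73%, and Col6a3 climbs from 13.7% and 20.4% to 77.7% and 77.4%.

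The KO libraries gave the same comparison in embryos that lack ΔNp63, with no library in common. By the same choice of cells, 2455 KO fibroblasts were found. Of 12417 genes tested there, 2086 rose (16.8%) and 1575 fell (12.7%). Of the 1889 genes that rose in control fibroblasts and were tested in KO, 1128 (59.7%) also rose in KO, 91.5% had the same sign and 9 fell. Of the 1548 that fell, 828 (53.5%) also fell, 91.0% had the same sign and 28 rose. Over all 11823 genes tested in both arms, 73.9% had the same sign, and 29.2% passed in KO in either direction. Traces of other cells moved otherwise in KO. Keratinocyte genes summed to 54.8 and 70.5 CPM at E13 and 113 and 250 CPM at E15, erythroid genes to 10788 and 7440 CPM against 31708 and 56338 CPM, and macrophage genes to 93.0 and 48.0 CPM against 323 and 250 CPM. Their part in the differences below was not tested. The median of fibrillar collagens was 1.84 in control and 1.86 in KO, that of adhesive glycoproteins 0.54 and 0.78, that of hyaluronan and large proteoglycan genes 0.70 and 1.08, and that of small leucine-rich proteoglycans 0.52 and 0.92. The contractile genes had medians of -1.18 and -1.16. None of these differences between medians was tested. Hmga2 changed by -3.35 in KO and P4ha2 by 3.70.

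The difference between the 2 age changes was tested over 12787 genes and passed in 201 (1.57%), of which 72 had a higher control change and 129 a higher KO change. This count was 21 without the first E13 KO library, 86 without the second and between 58 and 169 without a single other library. Condensate genes differed in their counts: 19 of 24 rose in control fibroblasts, 8 rose in KO, the medians were 2.33 and 0.04, and 6 of the 24 differed. Trps1 was at 6.49 and 4.59 CPM in the KO libraries at E13 and 24 and 21.7 CPM at E15, so that its control change was higher by 2.36 ± 0.30. Runx1 was at 19.9 and 17.9 CPM against 19.3 and 17.6 CPM in KO, a difference of 1.59 ± 0.17, and Nrp2 at 26.9 and 36.0 CPM against 31.1 and 26.3 CPM, a difference of 2.30 ± 0.33. Ptch1 rose in KO as well, from 2.16 and 3.38 CPM to 14.9 and 17.1 CPM, with a difference of 1.83 ± 0.31. Gli1 changed by 4.29 in KO and 3.69 in control, and that difference did not pass.

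The ERK, BMP and Wnt response genes held further differences. Of the 12 ERK response genes, 8 rose in control fibroblasts, while 1 rose and 4 fell in KO, and 4 differed. Dusp6 was at 17.4 and 19.3 CPM against 8.52 and 7.76 CPM in KO, a difference of 1.17 ± 0.19, and Spry1 at 31.6 and 27.5 CPM against 21.1 and 17.7 CPM, a difference of 1.30 ± 0.19. The BMP target Id1 was at 222 and 170 CPM against 50 and 38.4 CPM in KO, a difference of 1.82 ± 0.26. The Wnt response genes Lef1 (36.0 and 35.3 CPM against 13.9 and 12.8 CPM in KO, a difference of 1.36 ± 0.15) and Dkk1 (29.4 and 25.1 CPM against 4.93 and 3.41 CPM, a difference of 3.27 ± 0.30) fell in KO. In control fibroblasts Lef1 did not pass and Dkk1 rose by 0.70 ± 0.18, a call that was lost without E13 WT or E15 HET. In the other direction, Igf2 was at 1368 and 1404 CPM against 1496 and 1603 CPM in KO and Vcan rose there by 0.67, against the falls in control fibroblasts. Ribosomal protein genes had a median of 0.09 in KO, where 1 of 52 rose, and 0.38 in control. The difference between those medians was not tested.

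**Figure D5:**
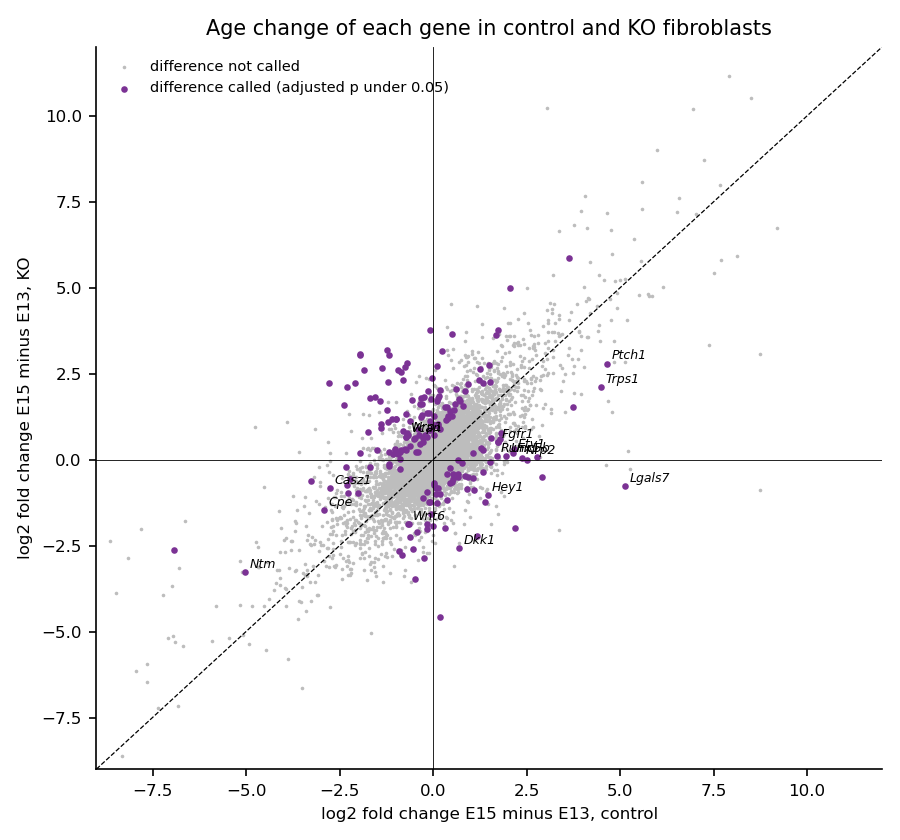
Log2 change from E13 to E15 in control fibroblasts (horizontal) against KO fibroblasts (vertical) for 11810 genes tested in both, with the 196 of them whose difference passed in purple. Most genes with large changes lie in the quadrants of equal sign, and Lgals7 and Dkk1 lie right of the diagonal.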

How the data were processed

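The 8 libraries are 10x Genomics 3′ single-cell RNA-seq of embryonic mouse back skin. The authors deposited whole-number UMI counts per gene and cell, made with Cell Ranger and Seurat on mm10 per the submitters' processing notes; versions and filters are not given in the sources used here. Of 27998 genes, 27645 matched GENCODE M21 by ID. The 2143 cells and the gene lists were chosen with earlier results of these data known. No doublet caller was run. Counts of the chosen cells were summed per library, limited to 25815 autosomal genes (94.1% of UMIs), filtered with edgeR's filterByExpr (minimum count 10) and tested with glmQLFit and glmQLFTest (edgeR 4.0.16, R 4.3.3, TMM scaling) on 2 libraries per age, with 2 residual degrees of freedom, Benjamini-Hochberg adjustment and a threshold of 0.05. An exact permutation test of 2 against 2 cannot go below 0.333. DESeq2 1.42.0 was an alternative, as were other scalings, filters, gates and left-out libraries. On simulated counts, edgeR recovered 200 of 200 genes changed 4-fold, with 11 false calls among 11987 genes fitted. The changed genes had at least 200 summed UMIs, so recovery of low-count genes and of smaller changes was not simulated. Named genes were the 15 largest rises and 15 largest falls as described in the report and up to 4 genes per list at 10 CPM or more, and further list genes were named after their values were seen. Intervals and floors cover counting error only. Some list genes are not reported here by name.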

Additional observations from a re-analysis of the deposited data

Results flagged for a closer look

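A fixed naming rule took the genes with the largest changes and the leading members of each list by change or level. Of these, 24 outside the choice of cells had an age change that differed between control and KO fibroblasts. The test was edgeR's interaction contrast on all 8 libraries. Each of the 24 is given as the control change, the KO change and the tested difference (control minus KO) on the log2 scale. List genes named after their values were seen are not counted here. Lgals7 changed by 5.14 and -0.77, a difference of 5.92. Dkk1, a secreted Wnt antagonist, changed by 0.70 and -2.58, a difference of 3.27. Hey1, a Notch target, changed by 1.46 and -1.04, a difference of 2.50. Trps1 (4.49 and 2.12, difference 2.36) and Ptch1 (4.66 and 2.79, difference 1.83) rose in both arms, and by more in control fibroblasts. The receptor gene Fgfr1 (1.72 and 0.51, difference 1.19) did so as well. Nrp2 (2.37 and 0.04, difference 2.30) and Etv1 (2.14 and 0.21, difference 1.92) rose in control fibroblasts and did not pass in KO. The same held for Unc5b (1.94 and 0.11, difference 1.81) and Runx1 (1.70 and 0.10, difference 1.59). The BMP target Id2 changed by 0.53 and -0.55, a difference of 1.06, and the Wnt feedback gene Nkd1 by -0.26 and -1.12, a difference of 0.84.

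Genes that fell in both arms, but further in KO, were Wnt6 (-0.64 and -1.88, difference 1.21) and Id3 (-0.68 and -1.88, difference 1.18). In the other direction, Casz1 (-2.74 and -0.84, difference -1.93), Ntm (-5.01 and -3.28, difference -1.75) and the prohormone processing gene Cpe (-2.91 and -1.48, difference -1.45) fell further in control. Vcan (-0.73 and 0.67, difference -1.42), Nrp1 (-0.66 and 0.71, difference -1.39) and the chemokine gene Cxcl12 (-0.51 and 0.60, difference -1.12) fell in control and rose in KO. The call of Cxcl12 in control was lost without E13 WT. The imprinted genes Igf2 (-0.75 and 0.31, difference -1.08), Meg3 (-0.40 and 0.23, difference -0.65) and Peg3 (-0.89 and -0.27, difference -0.64) fell in control and did not pass in KO. The control call of Meg3 was lost without E13 WT. Col6a1 rose by 1.53 and 2.27, a difference of -0.76. Without the first E13 KO library 21 of all genes differed in place of 201.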

How the results depend on the processing

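The control counts (1978 higher, 1574 lower) depended on depth and tool. Without TMM factors 2707 genes were lower, and DESeq2 called 1001 lower in control and 999 lower in KO fibroblasts. After thinning to 3000 UMIs 981 were higher and 671 lower of 9081 tested. Cells without a UMI of a cycling gene gave 145 and 99 of 2775 tested, from 14, 11, 46 and 26 cells, and the same choice after thinning, added after the data were seen, gave 351 and 162 of 5001 tested. There Id2 changed by -0.049, and in non-cycling cells Hmgb2 by -0.047, against 0.53 and 0.49. Leaving out single libraries gave 1389 to 1752 higher and 988 to 1391 lower genes in control, 1599 to 2022 and 1058 to 1637 in KO, and 21 to 169 genes that differed between arms. Without a filter on low counts 1023 differed. With a replicate block (genotype in control, library number in KO), 2169 were higher and 1789 lower in control and 1796 and 1215 in KO, and with the number within each arm 180 differed. The WT minus HET deviations at both ages correlated at 0.107 across genes, and those of the KO libraries at -0.02, and nothing in the labels pairs embryos across ages. Of 423 called list and named genes, 288 kept their call without any single library. Low counts at E13 limit the fold of genes near 0 UMIs.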
